A study of Mus musculus with 8 samples.

Results

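The heat shock and unfolded protein response genes described here are 31 genes that encode chaperones, folding enzymes, and regulators or targets of stress responses. They were taken by name, with earlier results of these data known, and every probe set whose annotation named exactly 1 of them was collected. The array named 18193 genes in this way. Of the 31 genes, 15 were listed with the cytosolic and mitochondrial chaperones, 11 with the stress response of the endoplasmic reticulum (ER) and 5 with the integrated stress response. Hmox1, an oxidative stress gene, is counted among the 15. A probe set naming the gene alone was found for 30 of the 31 genes, with 67 probe sets in all. Hsp90ab1, the constitutive cytosolic HSP90, was not analysed here.

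Total mouse RNA had been hybridised to 8 Affymetrix Mouse Genome 430 2.0 arrays, where each probe set is a group of short oligonucleotides against 1 transcript region. By their titles, 4 arrays form a control group (Ctrl) and 4 a group called Exp. The labels do not give the genotype, strain, age or treatment of either group, so what the Exp arrays were exposed to, and what both groups may share, is unknown here. One label field names the trigeminal ganglion, which holds the sensory neurons of the face, and another names brain and adrenal medulla. Nothing states that the 4 arrays of a group came from separate animals, so p-values measure only the spread between these arrays.

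The label for the ganglion was checked against marker genes. Of 17 sensory neuron markers, 16 passed the filter on low signal, which removed probe sets with a mean under 8.45 on the log2(signal + 16) scale, a signal of 333. Of 9 central neuron markers measured, 4 passed (Neurod6, Dlx1, Dlx2 and Pax6), and Tbr1, Slc17a7, Gad1, Gad2 and Emx1 did not. Of 10 chromaffin and sympathetic markers measured, 6 passed (Th, Pnmt, Chga, Chgb, Slc18a1 and Slc18a2), and Dbh, Phox2a, Hand2 and Gata3 did not. These counts do not decide between the label fields. The signals of the 16 sensory neuron markers summed to 653103 to 682168 in Ctrl and 655946 to 675750 in Exp. Those of the 6 chromaffin and sympathetic markers summed to 33308 to 36661 and 32533 to 34156. For the 4 central neuron markers the sums were 4196 to 5569 and 3880 to 6675. The sensory neuron sum was thus the highest of the 3 on every array. In a bulk RNA sample fewer cells of a type and less RNA per cell cannot be told apart.

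Cells keep separate responses to misfolded protein in separate compartments. In the cytosol, the transcription factor HSF1 is released from chaperones when unfolded protein accumulates and binds heat shock elements, repeats of GAA and its complement TTC, in front of chaperone genes. In the ER, the sensors IRE1, ATF6 and PERK lead to XBP1 splicing, to ATF6 cleavage and to a block of general translation, and XBP1 and ATF6 act through ER stress elements in front of chaperone genes. PERK and other kinases that phosphorylate eIF2α favour translation of ATF4, which drives amino acid synthesis and transport genes and the factor CHOP (gene Ddit3). Sensory neurons carry long axons and large amounts of cytoskeletal and membrane protein, and express many of these chaperones without any added stress.

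Sequence elements known for each branch were searched around the starts of the genes. Promoters of 26 of the 31 genes were in the RefSeq table (GRCm38.p6), each as 300 bases from 250 before to 50 after the start. Hspa8, Hsp90aa1, Hsp90ab1, Cryab and Hmox1 were not in it. The heat shock element was searched as GAANNTTC, which reads the same on both strands. A gene was counted when any of its annotated start sites had a match in the window. It was found for 9 of 10 cytosolic and mitochondrial chaperone genes, for 0 of 11 of the ER genes and for 1 of 5 of the integrated stress response genes (Asns), against 9.04% of the 27025 genes in the table. In Hsph1, Bag3 and Hspb8 the match reached past the start, and within the 250 bases before the start the counts were 6 of 10, 0 of 11 and 1 of 5, against 7.73% of genes. Dnaja1 had a match at 1 of its 3 start sites and Hspd1 at 1 of 2. The reverse order, TTCNNGAA, was present for 3 of the 10 (Hsph1, Hspd1 and Hspe1) against 9.6% of genes. In these 3 genes both forms overlapped, which gives at least 3 alternating units and occurred for 0.662% of genes. In Hsph1 that overlap too reached past the start. The following stretches show the element in capitals, on the strand of the gene, for the 2 neighbouring gene pairs, and for Dnaja1 as an example from a gene that is in neither pair.
Hspa1a, chr17:34972241-34972272, minus strand: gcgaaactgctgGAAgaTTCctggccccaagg
Hspa1b, chr17:34959323-34959354, minus strand: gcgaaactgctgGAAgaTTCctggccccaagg
Hspd1, chr1:55088052-55088083, minus strand: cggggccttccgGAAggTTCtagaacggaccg
Hspe1, chr1:55088052-55088083, plus strand: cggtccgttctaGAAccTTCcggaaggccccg
Dnaja1, chr4:40722332-40722363, plus strand: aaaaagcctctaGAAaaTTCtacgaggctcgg
The Hspa1a and Hspa1b stretches were identical, and the Hspd1 and Hspe1 stretches were the same bases read on opposite strands between genes that point away from each other. No other annotated gene lay between the members of either pair.

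The ER stress element was searched as CCAAT followed by CCACG after 9 bases, on both strands. It was present for 5 of 11 ER genes, for 0 of 10 of the cytosolic and mitochondrial genes and for 0 of 5 of the integrated stress response genes, against 37 of the 27025 genes (0.137%). All 5 matches lay before the start. The 5 genes were Hspa5, Hsp90b1, Calr, Canx and Pdia6, all ER chaperones or folding enzymes. Their elements are shown on the strand named, with the fixed bases in capitals, since these genes form the core of the ER results.
Hspa5, chr2:34772013-34772055, plus strand: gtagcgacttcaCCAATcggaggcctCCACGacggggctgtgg
Hsp90b1, chr10:86705521-86705563, plus strand: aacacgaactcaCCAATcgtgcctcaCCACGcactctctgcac
Calr, chr8:84847063-84847105, plus strand: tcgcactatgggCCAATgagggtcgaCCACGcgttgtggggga
Canx, chr11:50325788-50325830, minus strand: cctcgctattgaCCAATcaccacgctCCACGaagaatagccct
Pdia6, chr12:17266479-17266521, plus strand: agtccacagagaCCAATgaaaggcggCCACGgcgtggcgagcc
The Hsp90b1 promoter held a further match on the other strand. The UPR element, searched as TGACGTGG on both strands, was found for 0 of the 26 genes and for 0.714% of all.

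The amino acid response element, to which ATF4 dimers bind, was searched as TGATGNAA on both strands. It was present for 3 of 5 integrated stress response genes (Trib3, Asns and Chac1), for 1 of 11 ER genes (Herpud1) and for 0 of 10 of the others, against 4.51% of genes. The Trib3 match reached past the start, and before the start the counts were 2 of 5 and 1 of 11, against 3.91% of genes. In Asns it shared bases with the heat shock element named above. The stretches below show it in capitals for the 3 genes with a match before the start.
Asns, chr6:7693213-7693244, minus strand: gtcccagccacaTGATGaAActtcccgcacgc
Chac1, chr2:119351037-119351068, minus strand: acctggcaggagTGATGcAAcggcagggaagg
Herpud1, chr8:94386305-94386336, minus strand: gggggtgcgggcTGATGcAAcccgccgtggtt
These matches describe letters in a fixed window. They show neither binding nor use of the site, and a promoter without a match may hold the element in another form or place.

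Across the stress genes no difference between Exp and Ctrl passed the test. Each gene is represented by its probe set with the highest mean, values are log2(signal + 16) after quantile normalization, and a difference is Exp minus Ctrl on that scale. Of the 30 measured genes, 29 passed the filter on low signal. In limma, with p-values adjusted by Benjamini-Hochberg across the 27022 tested probe sets, 0 of the 29 genes were called at a 5% false discovery rate, and their adjusted p was 0.999 in every case. The same test called 1 probe set on the array, 0.0037% of those tested. At an unadjusted p below 0.05, 1 of the 29 genes was found (Cryab, higher in Exp), or 3.45%, against 4.69% of all tested probe sets. The Exp and Ctrl values overlapped in all 29 genes, while 2.34% of all tested probe sets had groups that did not overlap.

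In the reported fit the direction of the differences was evenly split as well. Exp was higher in 14 of the 29 genes and lower in 15, that is higher in 48.3% against 48.4% of all tested probe sets. This split depends on single arrays, being 9 of 29 without Ctrl 1 and 22 of 29 without Ctrl 2. It depends on the normalization too, being 20 of 29 without normalization between arrays and 11 of 29 with median centring. The differences ran from -0.34 (Herpud1) to 0.46 (Cryab), with a median of 0.00, against a median of -0.01 over all tested probe sets. Their median size was 0.03 over the 29 brightest probe sets and 0.08 over all 60 tested probe sets of these genes, against 0.11 over all tested probe sets of the array. The standard error had a median of 0.14. The 95% confidence interval lay within a doubling or a halving in all 29 genes, against 93.5% of all tested probe sets, and within 0.5 log2 units on either side of 0 in 19 of the 29 (65.5%, against 54.1%).

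**Figure D1:**
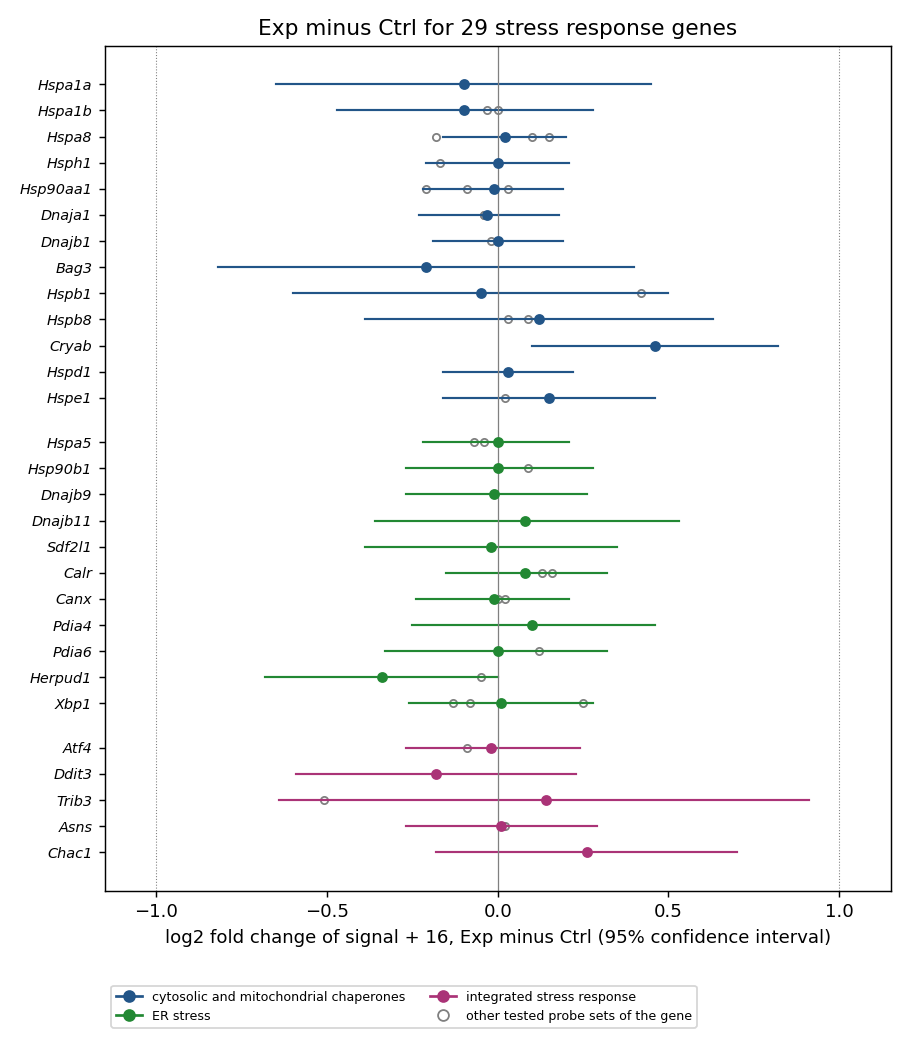
Difference between Exp and Ctrl (log2(signal + 16), Exp minus Ctrl) for the 29 tested genes, ordered by branch, with 4 arrays a group. Filled points are limma estimates of each gene's brightest probe set, bars are 95% confidence intervals, open circles are the gene's other tested probe sets, and dotted lines mark 1 log2 unit on either side of 0. The estimates run from -0.34 for Herpud1 to 0.46 for Cryab, and Cryab is the gene whose interval does not reach 0.

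Among the 13 tested cytosolic and mitochondrial chaperone genes, 6 were higher and 7 lower in Exp, with a median difference of 0.00. Several of these genes stood among the brightest probe sets of the array. Hspa8, the constitutive HSP70 that folds new proteins and uncoats clathrin vesicles, lay between 16.76 and 16.85 on all 8 arrays and differed by 0.02 (SE 0.08). Hsp90aa1, a cytosolic HSP90, lay between 15.89 and 16.10 and differed by -0.01 (SE 0.09). Dnaja1, a J-domain partner of HSP70, differed by -0.03 (SE 0.09). Dnajb1, the partner most associated with heat shock, lay between 15.39 and 15.51 and differed by 0.00 (SE 0.08). Hsph1, the HSP110 nucleotide exchange factor, lay between 15.24 and 15.46 and differed by 0.00 (SE 0.09).

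The within-group standard deviation of the brightest probe set of each of these genes was small compared with other probe sets. It was at percentile 0.1 for Hspa8, 0.7 for Dnajb1, 3.6 for Dnaja1, 3.9 for Hsp90aa1 and 4.9 for Hsph1. Other tested probe sets of these genes ranged from percentile 2.7 to 86.3, with both ends in Hspa8. By their brightest probe set, a choice that raises the rank, these genes were in the top 10% of tested probe sets by mean. The same held for 16 of the 29 genes. Other tested probe sets of these 5 genes ranged from percentile 8.2 (Hsp90aa1) to 98.6 (Dnaja1) by mean. By brightest probe set, 3 genes (Hspa8, Hspd1 and Hspa5) were in the top 1%. There quantile normalization assigns nearly the same values to the brightest probe sets of every array. Without normalization between arrays the 8 values of Hspa8 spanned 0.31 in place of 0.09 and its difference was 0.10. Those of Dnajb1 spanned 0.24 in place of 0.12, with a difference of 0.03. The span was 0.26 in place of 0.18 for Dnaja1, 0.24 in place of 0.22 for Hsph1, and 0.21 either way for Hsp90aa1. The signs of the differences of Hsph1, Hsp90aa1 and Dnaja1 turned without that normalization, to 0.02, 0.04 and 0.03.

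Hspa1a, Hspa1b and Bag3 varied more between arrays than the brighter genes above. Hspa1a, which encodes an HSP70 made mainly under stress, read 9.72, 10.85, 10.73 and 10.59 in Ctrl 1 to 4 and 10.43, 10.58, 10.06 and 10.41 in Exp 1 to 4. Its lowest value was Ctrl 1 and its highest Ctrl 2, a span of 1.13 or 2.19-fold that lies within the control group. The difference was -0.10 (SE 0.24). Without Ctrl 1 it was -0.35, with an unadjusted limma p of 0.0423 that did not survive adjustment.

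Hspa1b, its near-identical neighbour, read 11.24, 11.75, 11.82 and 11.46 in Ctrl 1 to 4 and 11.59, 11.67, 11.49 and 11.15 in Exp 1 to 4. The groups overlapped and differed by -0.10 (SE 0.16). Ctrl 1 was also the lowest control in the other 2 Hspa1b probe sets, at 9.66 and 8.97. Across the 8 arrays the 3 Hspa1b probe sets and the Hspa1a probe set had pairwise Pearson correlations of 0.67 to 0.97. Because the transcripts of the 2 genes are nearly identical, the probe sets cannot be taken to separate them.

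Bag3, the co-chaperone that hands HSP70 clients to autophagy, read 10.38, 11.33, 11.02 and 10.14 in Ctrl 1 to 4 and 10.86, 10.63, 10.23 and 10.32 in Exp 1 to 4. The highest and the lowest arrays were both controls, and every Exp value lay between them. The group means were 10.72 ± 0.56 and 10.51 ± 0.29 (SD, n = 4), and the difference was -0.21 (SE 0.27). Its within-group standard deviation was at percentile 89.8 of all tested probe sets, that of Hspa1a at 85.0 and that of Hspa1b at 56.2. By mean signal Bag3, Hspa1a and Hspa1b lay at percentiles 50.7, 47.0 and 65.5, under the brighter chaperone genes above. Such variation was not particular to them, since the standard deviations of Hspb1, Hspb8 and Trib3 were at percentiles 85.0, 81.0 and 96.1.

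Cryab encodes alpha B-crystallin, a small heat shock protein that holds unfolded proteins in soluble form and is abundant in muscle, lens and glia. Its signal was 11.23, 11.00, 10.77 and 10.66 in Ctrl 1 to 4 and 11.08, 11.44, 11.36 and 11.61 in Exp 1 to 4. All Exp values but Exp 1 lay above all controls, and Exp 1 lay below Ctrl 1. The means were 10.91 ± 0.25 and 11.37 ± 0.22 (SD, n = 4), a difference of 0.46 (SE 0.16, 95% confidence interval 0.10 to 0.82), or 1.38-fold (1.07 to 1.77). The unadjusted limma p was 0.0184, the adjusted p 0.999 and the exact permutation p 0.0571, where the smallest possible value is 0.0286. The difference kept its sign under all 18 alternatives, at 0.37 to 0.57, with an unadjusted p of 0.00634 to 0.0534, the highest with the replicate number as a block. The other 2 Cryab probe sets were under the filter, with means of 7.40 and 7.31 in Ctrl and 7.33 and 7.26 in Exp.

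Markers of other cell types, of which 0 were called, are given here beside Cryab. Of 16 skeletal muscle markers, 13 were tested (not Tnnt3, Tnni2 or Des), and 12 of the 13 were higher in Exp. Their mean, as a deviation from the 8-array mean, was -0.42, -0.21, -0.42 and -0.25 in Ctrl 1 to 4 and -0.06, 0.54, 1.57 and -0.74 in Exp 1 to 4. Their summed signal ranged from 7304 to 11224 in Ctrl and from 5517 to 64530 in Exp. Cryab was highest in Exp 4, the array with the lowest muscle mean, and the muscle mean was highest in Exp 3. Of 16 Schwann cell and myelin markers, 11 were tested and all 11 were lower in Exp, with summed signals of 91110 to 116830 in Ctrl and 73872 to 95572 in Exp. Of 12 tested satellite glia markers, 10 were lower in Exp, with a median difference of -0.16, and their signals summed to 211304 to 225078 in Ctrl and 206673 to 238439 in Exp. Of 14 epithelial and keratinocyte markers, 8 were tested and 7 of them were higher in Exp, with summed signals of 6444 to 7507 in Ctrl and 4977 to 11220 in Exp. The part of these markers in the Cryab values was not tested.

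The remaining small heat shock proteins gave no common direction. Hspb1, encoding HSP27, which sensory neurons express and which binds actin and intermediate filaments, read 9.94, 9.59, 9.79 and 9.91 in Ctrl 1 to 4 and 9.92, 9.04, 10.32 and 9.71 in Exp 1 to 4. The lowest and the highest arrays were both in Exp, and the difference was -0.05 (SE 0.24). Its second probe set gave 0.42 (SE 0.19, unadjusted limma p 0.0519) with overlapping groups, so the direction rests on the choice of probe set. Hspb8, the partner of BAG3 in chaperone-assisted autophagy, differed by 0.12 (SE 0.23). In Exp it read 10.14 in Exp 1 and 10.96 to 11.09 in the others.

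**Figure D2:**
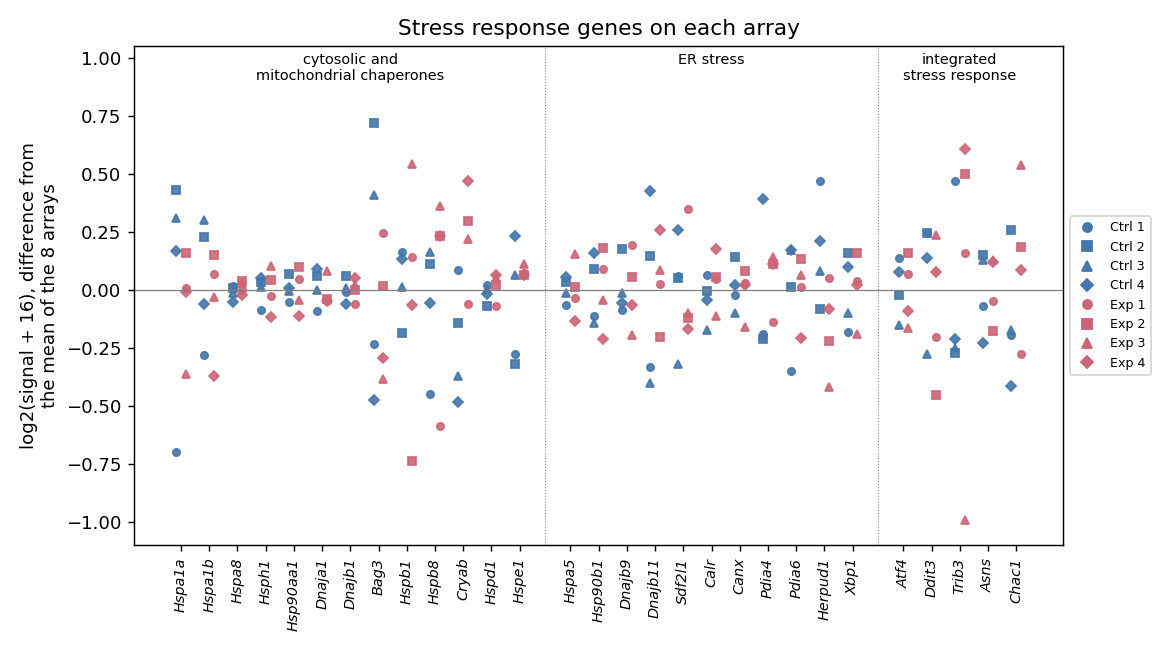
Level of each of the 29 tested genes on each array, as log2(signal + 16) minus that gene's mean over the 8 arrays. Blue symbols are Ctrl arrays and red symbols Exp arrays, with 1 symbol shape per replicate number. Bag3, Hspa1a and Trib3 spread widely within a group. After the quantile normalization used here, Hspa8, Dnajb1 and Hspd1 lie close to 0 on every array. Their 8 values spanned 0.09, 0.12 and 0.13 with it, and 0.31, 0.24 and 0.40 without normalization between arrays.

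The mitochondrial chaperonin, which folds imported proteins, gave differences of 0.03 and 0.15. Hspd1, encoding HSP60, lay between 16.27 and 16.40 on the 8 arrays and differed by 0.03 (SE 0.08), or by 0.11 without normalization between arrays. Hspe1, encoding its lid HSP10, read 13.70, 13.66, 14.04 and 14.21 in Ctrl 1 to 4 and 14.05, 14.04, 14.09 and 14.04 in Exp 1 to 4. The Exp arrays lay within the range of the controls, with an SD of 0.03 against 0.27 (n = 4). The difference was 0.15 (SE 0.14, unadjusted limma p 0.295). The genes share the promoter stretch printed above. Across the 8 arrays their levels had a Pearson r of 0.24 (exact permutation p 0.565) and a Spearman rho of -0.12. That r was 0.44 without normalization between arrays, where the values of Hspd1 spanned 0.40 in place of 0.13. Without Ctrl 2 and Exp 1, the arrays farthest from the median of Hspd1, r was -0.19.

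Hmox1, encoding heme oxygenase 1, an enzyme induced by oxidative stress, lay under the filter on low signal and was not tested. Its only probe set read 7.68, 7.16, 8.17 and 6.25 in Ctrl 1 to 4 and 7.70, 8.18, 7.61 and 7.77 in Exp 1 to 4. The groups overlapped and the lowest array was Ctrl 4.

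In the ER branch 5 of the 11 genes were higher and 6 lower in Exp, with a median difference of 0.00. The 9 chaperones and folding enzymes of this branch differed by -0.02 to 0.10, with standard errors of 0.10 to 0.20. Hspa5, encoding BiP, the HSP70 of the ER and its main stress indicator, lay between 16.31 and 16.60 on the 8 arrays. It differed by 0.00 (SE 0.10, 95% confidence interval -0.22 to 0.21), and by 0.06 without normalization between arrays, which matters at the bright end where it lies. Hsp90b1, encoding GRP94, the HSP90 of the ER, differed by 0.00 (SE 0.12). Canx, encoding the membrane-bound lectin chaperone calnexin, differed by -0.01 (SE 0.10).

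Calr, encoding calreticulin, the soluble lectin chaperone and calcium store protein, read 14.89, 14.82, 14.65 and 14.78 in Ctrl 1 to 4 and 14.87, 14.88, 14.71 and 15.00 in Exp 1 to 4. The highest array was Exp 4 and the lowest Ctrl 3, with the rest mixed. The difference was 0.08 (SE 0.10, unadjusted limma p 0.432), and the other 2 Calr probe sets gave 0.13 and 0.16.

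Pdia4, encoding the disulfide isomerase ERp72, read 10.39, 10.37, 10.38 and 10.97 in Ctrl 1 to 4 and 10.44, 10.69, 10.72 and 10.69 in Exp 1 to 4. Every Exp array lay above Ctrl 1, 2 and 3 and below Ctrl 4. The difference was 0.10 (SE 0.16, unadjusted limma p 0.518), and without Ctrl 4 it was 0.25 with an unadjusted p of 0.0531. Pdia6, another disulfide isomerase, differed by 0.00 (SE 0.14).

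The J-domain partners of BiP gave values of the same size. Dnajb9 (ERdj4) differed by -0.01 (SE 0.12) and Dnajb11 (ERdj3) by 0.08 (SE 0.20). Sdf2l1, a small ER protein that acts with Dnajb11, differed by -0.02 (SE 0.16). All 5 genes with an ER stress element in the promoter window (Hspa5, Hsp90b1, Calr, Canx and Pdia6) had differences of -0.01 to 0.08.

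Herpud1, which encodes an ER membrane protein of the degradation pathway for misfolded proteins, had the most negative difference of the 29. It read 11.73, 11.18, 11.34 and 11.47 in Ctrl 1 to 4 and 11.31, 11.04, 10.84 and 11.18 in Exp 1 to 4. Exp 1 lay within the control range, Exp 4 was level with the lowest control, and the remaining Exp arrays lay under all controls. The means were 11.43 ± 0.23 and 11.09 ± 0.20 (SD, n = 4), and the difference was -0.34 (SE 0.15, 95% confidence interval -0.68 to 0.00). The unadjusted limma p was 0.0505, the adjusted p 0.999 and the exact permutation p 0.0571. Its second probe set differed by -0.05 (SE 0.21).

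Xbp1, the transcription factor that IRE1 activates by splicing its mRNA, lay between 15.02 and 15.37 and differed by 0.01 (SE 0.12). Its other 3 probe sets gave -0.13 to 0.25. A total probe signal does not separate the spliced from the unspliced form.

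**Figure D3:**
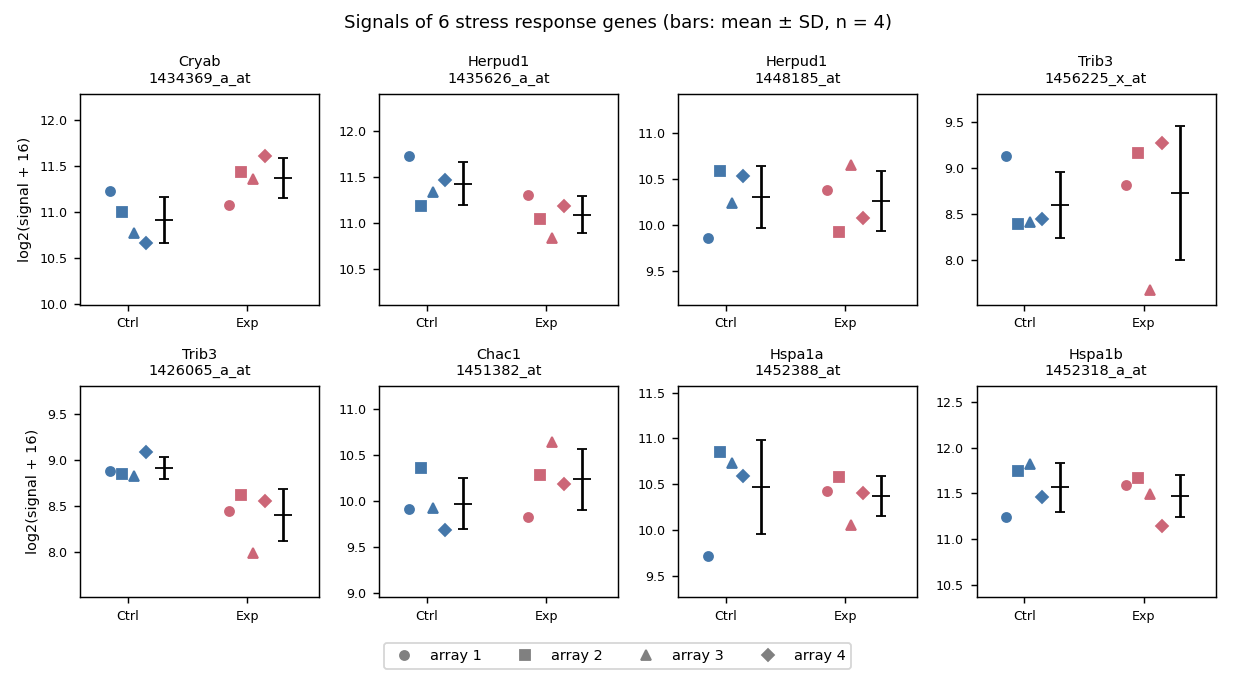
Per-array log2(signal + 16) of Cryab, Herpud1 and other genes whose values are given in full, for Ctrl (blue) and Exp (red), with 4 arrays a group. Points are arrays, and bars show the group mean and SD. The groups overlap in each representative probe set shown, and separate in the second Trib3 probe set, with 8.82 to 9.09 in Ctrl and 7.99 to 8.62 in Exp.

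In the integrated stress response branch, 3 of the 5 genes were higher and 2 lower in Exp, with a median difference of 0.01. Atf4, its central transcription factor, which is regulated largely at translation, lay between 14.71 and 15.03 and differed by -0.02 (SE 0.11). Asns, encoding asparagine synthetase, a direct ATF4 target, lay between 13.94 and 14.32 and differed by 0.01 (SE 0.12).

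Ddit3, encoding CHOP, read 10.58, 10.58, 10.06 and 10.47 in Ctrl 1 to 4 and 10.13, 9.88, 10.57 and 10.41 in Exp 1 to 4. Ctrl 3 lay among the lower Exp values and Exp 3 among the higher controls. The difference was -0.18 (SE 0.18, unadjusted limma p 0.354). Chac1, encoding an enzyme that degrades glutathione and a target of ATF4, read 9.91, 10.36, 9.93 and 9.69 in Ctrl 1 to 4 and 9.83, 10.29, 10.64 and 10.19 in Exp 1 to 4. The groups overlapped, with Ctrl 2 above all Exp arrays but Exp 3. The difference was 0.26 (SE 0.19, unadjusted limma p 0.213).

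Trib3, a pseudokinase that ATF4 and CHOP induce and that restrains AKT signalling, was the gene whose probe sets disagreed most. Its representative probe set, whose name ends in _x_at, read 9.13, 8.39, 8.41 and 8.45 in Ctrl 1 to 4 and 8.82, 9.16, 7.67 and 9.27 in Exp 1 to 4. The Exp arrays surrounded the controls on both sides, and the difference was 0.14 (SE 0.34). Without Exp 3 it was 0.49, with an unadjusted limma p of 0.0488. Its second probe set, whose name ends in _a_at, read 8.88, 8.85, 8.82 and 9.09 in Ctrl 1 to 4 and 8.44, 8.62, 7.99 and 8.55 in Exp 1 to 4. Here all Exp arrays lay under all controls.

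The second Trib3 probe set differed by -0.51 (SE 0.15, 95% confidence interval -0.85 to -0.17), with an unadjusted limma p of 0.00791, an adjusted p of 0.999 and an exact permutation p of 0.0286, the smallest the design allows. The means of the 2 probe sets over all arrays differed by only 0.01, so the rule of the highest mean decided between them by that margin. Both lie in the lowest 10% of tested probe sets by mean, at percentiles 6.5 and 6.2. The suffix _x_at marks a probe set with probes that may hybridise to other transcripts.

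Over all 60 tested probe sets of the 29 genes, 28 were higher and 32 lower in Exp. An unadjusted limma p below 0.05 was found for 2 of them (Cryab, higher, and the second Trib3 probe set, lower), or 3.33%, against 4.69% of all tested probe sets. The groups did not overlap in 1 of the 60, the second Trib3 probe set, against 2.34% of all. More than 1 tested probe set was available for 19 genes. Their differences lay more than 0.5 log2 units apart for Trib3 alone (0.65), followed by Hspb1 (0.47), Xbp1 (0.38) and Hspa8 (0.33).

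The mean of each branch stayed within 0.16 log2 units of its 8-array mean on every array. The mean of the 13 cytosolic and mitochondrial genes, as a deviation from the 8-array mean, was -0.15, 0.08, 0.07 and -0.04 in Ctrl 1 to 4 and -0.02, 0.02, 0.05 and -0.01 in Exp 1 to 4. That of the 11 ER genes was -0.07, 0.04, -0.11 and 0.15 in Ctrl and 0.06, 0.02, -0.07 and -0.03 in Exp. That of the 5 integrated stress response genes was 0.12, 0.07, -0.14 and -0.13 in Ctrl and -0.06, 0.04, -0.05 and 0.16 in Exp. The cytosolic and mitochondrial mean was lowest in Ctrl 1 and the other means in Ctrl 3, and the ranges of Ctrl and Exp overlapped in all 3 branches.

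Correlations across the 8 arrays were computed for 20 pairs of genes within branches, and 0 passed 5% after Benjamini-Hochberg adjustment over the 20. An unadjusted exact permutation p below 0.05 was found for 3 pairs. Hspa1b and Bag3, both targets of HSF1, had a Pearson r of 0.74 (exact permutation p 0.0389, adjusted 0.251) and a Spearman rho of 0.76 (exact permutation p 0.0368, adjusted 0.278). Without Ctrl 1 and Exp 4, the arrays farthest from the median of Hspa1b, r was 0.86, and without normalization between arrays it was 0.75. Hspa1b and Hsp90aa1 had an r of 0.80 (exact permutation p 0.0187, adjusted 0.187) and a rho of 0.69 (exact permutation p 0.0694, adjusted 0.278). That r was 0.40 without the same 2 arrays and 0.20 without normalization.

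Atf4 and its target Asns ran in opposite directions, with an r of -0.84 (exact permutation p 0.0166, adjusted 0.187) and a rho of -0.78 (exact permutation p 0.0301, adjusted 0.278). The relation was -0.81 without Ctrl 3 and Exp 3 and -0.87 without normalization between arrays. Both genes varied little, Atf4 over a span of 0.33 and Asns over 0.38. In the ER branch, Hspa5 had an r of 0.60 with Pdia6 (exact permutation p 0.125, adjusted 0.356), 0.47 with Hsp90b1 (exact permutation p 0.240, adjusted 0.534) and -0.68 with Calr (exact permutation p 0.0657, adjusted 0.251). Their rho values were 0.62, 0.60 and -0.71. Without Exp 3 and Exp 4, the arrays farthest from the median of Hspa5, the r values were 0.68, 0.69 and -0.23, and without normalization between arrays they were 0.43, 0.16 and -0.15. With the other 5 partners Hspa5 had an r of -0.50 (Herpud1), 0.34 (Pdia4), -0.25 (Dnajb9), 0.18 (Dnajb11) and 0.07 (Sdf2l1). Their exact permutation p values were 0.195 to 0.872 (adjusted 0.488 to 0.918). Without normalization between arrays these 5 r values were, in the same order, -0.54, 0.69, -0.73, 0.20 and -0.32.

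**Figure D4:**
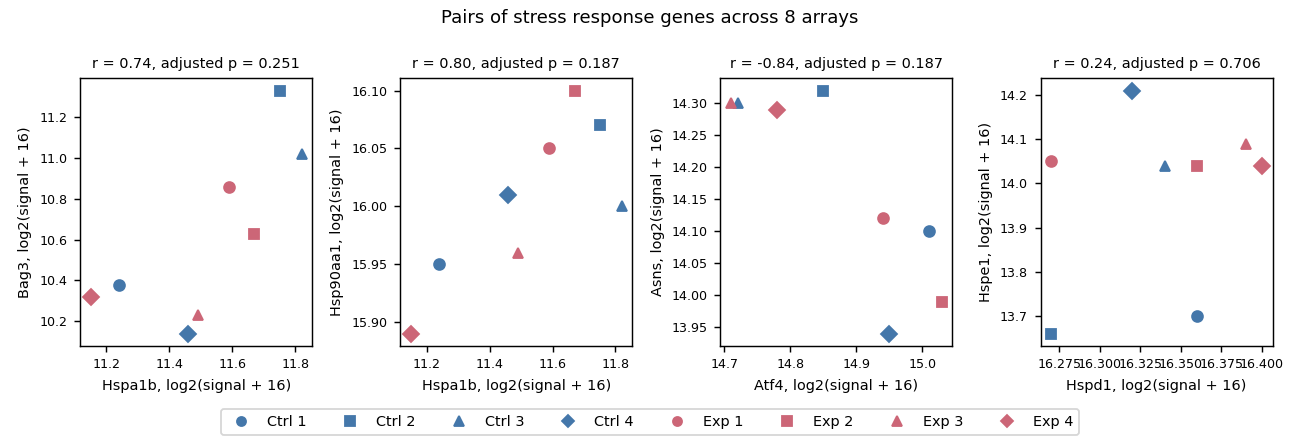
Levels of 4 pairs of genes across the 8 arrays, both axes in log2(signal + 16), blue for Ctrl and red for Exp with 1 symbol per array. Panel titles give Pearson r and the exact permutation p after Benjamini-Hochberg adjustment over 20 pairs. Hspa1b and Bag3 rank arrays alike (r 0.74), Atf4 and Asns rank them in reverse (r -0.84), and no adjusted p is below 0.05.

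The wider pathway was read from 6 further lists with 128 genes, of which 109 were tested. In limma, 0 of the 109 were called, 3 had an unadjusted p below 0.05 (2.75%, against 4.69% of all tested probe sets), and 48 were higher (44%, against 48.4%) and 61 lower in Exp. Their median difference was -0.01. Of 35 other heat shock and cytosolic folding genes, 12 were higher and 23 lower, with a median of -0.03. The smallest p values there belonged to Cdc37, the kinase-specific HSP90 co-chaperone (-0.23, SE 0.12), Dnajc7, an HSP70 and HSP90 co-chaperone (0.24, SE 0.13), and Sqstm1, the autophagy receptor p62 (-0.18, SE 0.12). Of 7 mitochondrial folding and protease genes, 5 were higher and 2 lower, with a median of 0.01, led by Clpp (-0.18), Dnaja3 (0.12) and Lonp1 (-0.05).

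Of 28 other ER folding and degradation genes, 17 were higher and 11 lower, with a median of 0.01. Uggt1, the enzyme that tags misfolded glycoproteins for another round with calnexin, read 11.68, 11.67, 11.58 and 11.85 in Ctrl 1 to 4 and 12.08, 11.96, 12.15 and 12.00 in Exp 1 to 4. All Exp arrays lay above all controls, with a difference of 0.35 (SE 0.10, unadjusted limma p 0.00607, adjusted 0.999). Sel1l, the scaffold of the ER degradation ligase, differed by 0.25 (SE 0.10, unadjusted limma p 0.0355, adjusted 0.999), and Dnajb14 by -0.25 (SE 0.13). With the probe sets of each gene averaged, Uggt1 differed by 0.22 (unadjusted limma p 0.0361), Sel1l by 0.04 (p 0.616) and Dnajb14 by -0.06 (p 0.545).

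Of 15 sensor and signalling genes of the unfolded protein response, 7 were higher and 8 lower, with a median of -0.01. The sensor Atf6 differed by -0.21 (SE 0.18), the related factor Creb3l1 by -0.28 (SE 0.17) and the adaptor Traf2 by -0.18 (SE 0.10). Of 16 other targets of ATF4 and CHOP, 4 were higher and 12 lower, with a median of -0.03. Those with the smallest p were Phgdh, of serine synthesis (-0.27, SE 0.12), the stress factor Atf3 (-0.35, SE 0.16) and the lipoprotein receptor Vldlr (0.17, SE 0.09). Of 8 oxidative stress genes tested beside Hmox1, 3 were higher and 5 lower, with a median of -0.05. Srxn1, encoding sulfiredoxin, differed by -0.35 (SE 0.15, unadjusted limma p 0.0416, adjusted 0.999), Txnrd1 by 0.21 (SE 0.12) and Gclm by -0.17 (SE 0.10). With averaged probe sets Srxn1 differed by -0.14 (unadjusted limma p 0.442), Txnrd1 by 0.08 and Phgdh by -0.51 (p 0.153). Groups that did not overlap were found in 3 of the 109 (Uggt1, Dnajc7 and Vldlr), or 2.75%, against 2.34% of all tested probe sets.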

How the data were processed

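The authors deposited 1 linear intensity per probe set and array. The software and settings behind them are not given in the sources used here. Array medians were 478 to 552.6, and the mean without the outer 2% at each end was 2500 on every array, so differences in total signal are not visible. All columns were mapped to samples by title. The files carry no detection calls.

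The 64 control probe sets were left out. Values were taken as log2(signal + 16) and quantile-normalized, since array medians differed by 0.203 (limit 0.2). Probe sets with a mean above the 40th percentile were kept. The 2 groups were compared in R 4.3.3 with lmFit and eBayes of limma 3.58.1, two-sided, with p-values adjusted by Benjamini-Hochberg across the 27022 kept. Gene names came from the platform annotation, updated by Entrez identifier through RefSeq. Of 45037 probe sets, 34945 had 1 name, 932 several and 9160 none. A gene was represented by its probe set with the highest mean, and all others were read too. Exact permutation tests used all 70 orders of the arrays, or all pairings for correlations. The number of arrays limits the precision. The scripts were tested on simulated data, and figures were drawn with matplotlib 3.10.9.

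Named genes were all members. Values on every array are given for the 3 with the smallest p in each branch, for those with p below 0.05, non-overlapping groups or discordant probe sets, and, chosen after their values were seen, for Hspa1a, Hspa1b, Hspb1, Hmox1 and Uggt1. Other lists name up to 3 genes by p. The members and lists were chosen with earlier results of these data known. Alternatives were other pseudocounts, filters and normalizations, a replicate block, trend and robust fits, array weights, averaged probe sets of a gene and the omission of each array in turn. The second Trib3 probe set and correlations without Ctrl 1 were added after the data were seen.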

Additional observations from a re-analysis of the deposited data

Results flagged for a closer look

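Of 162 groups of 4 arrays examined among the stress genes and the other named pathway genes, 10 held an array set apart from the other 3 by a gap, as a share of the group's range, above the critical value of Dixon's test for 4 values at the 95% level. Chance flags about 1 in 20 groups, or 8.1 here, so the number is near what chance gives.

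Among the cytosolic chaperone genes, Dnaja1 read 15.98 in Exp 3 against 15.85 to 15.86 in the other Exp arrays, and Hspb8 read 10.14 in Exp 1 against 10.96 to 11.09. Among the ER genes, Sdf2l1 read 9.64 in Exp 1 against 9.12 to 9.19. Pdia4 stood apart in both groups, at 10.97 in Ctrl 4 against 10.37 to 10.39 and at 10.44 in Exp 1 against 10.69 to 10.72. In the integrated stress response, Trib3 read 9.13 in Ctrl 1 against 8.39 to 8.45, and the second Asns probe set read 13.75 in Ctrl 2 against 13.25 to 13.32. Among the other pathway genes, Sqstm1 read 11.88 in Exp 3 against 11.57 to 11.62. Sel1l read 14.15 in Ctrl 1 against 13.89 to 13.93, and Atf6 read 10.67 in Ctrl 1 against 10.97 to 11.03.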

How the results depend on the processing

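Under 18 other settings 0 of the 29 genes were called. The count of genes with an unadjusted limma p below 0.05, 1 in the reported fit, was 2 with a pseudocount of 64, a filter at the 60th percentile, median centring, and trend and robust fits. It was also 2 with the second Trib3 probe set, a choice added after the data were seen, and it was 0 to 2 when 1 array was left out. The count of genes higher in Exp was 9 to 22 when 1 array was left out. It was 20 without normalization between arrays and 11 with median centring. The 1 probe set called on the whole array became 0 without a filter and with the filter at the 60th percentile, and 0 to 1 when 1 array was left out, with 1 only without Exp 2.

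The replicate number as a block gave 0 called probe sets on the array in place of 1 and called 0 of the 29 genes. The 1 gene with an unadjusted p below 0.05 was then Herpud1 (p 0.0263, against 0.0505), while Cryab went from 0.0184 to 0.0534. The labels do not say what the shared numbers mean, and same-numbered arrays had deviation correlations of 0.016, 0.05, -0.074 and -0.123. Arrays with different numbers had correlations of -0.173 to 0.2. These values cannot show whether same-numbered arrays share more than a number.

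Of the 29 genes, 9 kept their sign under all alternatives run for them (Hspa8, Cryab, Hspd1, Hspe1, Calr, Pdia4, Herpud1, Ddit3 and Chac1) and 20 did not. The reported difference of those 20 was at most 0.21 in size. Without normalization between arrays the sign turned for Hsph1 0.02, Hsp90aa1 0.04, Dnaja1 0.03, Hspa5 0.06, Sdf2l1 0.03, Canx 0.03, Pdia6 0.01 and Asns -0.00. With median centring it turned for Dnajb1 -0.02, Hspa5 0.01, Hsp90b1 -0.05, Xbp1 -0.02 and Asns -0.05. With array weights it turned for Hsp90aa1 0.00, Dnajb1 -0.01, Dnajb9 0.03, Sdf2l1 0.07, Canx 0.02, Atf4 0.05 and Asns -0.04. With the probe sets of a gene averaged it turned for Dnajb1 -0.01, Hspb1 0.18, Canx 0.00, Pdia6 0.06 and Trib3 -0.19 and, outside the 29, for Dnaja3 -0.06. Leaving out 1 array turned the sign of 19 genes, whose ranges were Hspa1a -0.35 to 0.02, Hspa1b -0.20 to 0.01, Hsph1 -0.03 to 0.04, Hsp90aa1 -0.04 to 0.03, Dnajb1 -0.02 to 0.02, Bag3 -0.40 to 0.00, Hspb1 -0.24 to 0.18, Hspb8 -0.01 to 0.33, Hspa5 -0.06 to 0.04, Hsp90b1 -0.05 to 0.07, Dnajb9 -0.07 to 0.06, Dnajb11 -0.04 to 0.24, Sdf2l1 -0.14 to 0.06, Canx -0.05 to 0.04, Pdia6 -0.12 to 0.07, Xbp1 -0.04 to 0.08, Atf4 -0.07 to 0.04, Trib3 -0.04 to 0.49 and Asns -0.06 to 0.07. The cause was not tested.

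Cryab had an unadjusted p below 0.05 in 14 of 18 alternatives, Herpud1 in 7 of 18 and the second Trib3 probe set in 16 of 16. Herpud1 ranged from -0.42 to -0.19 and the second Trib3 probe set from -0.58 to -0.38. The other scalings moved the median difference of all probe sets to between -0.04 and 0.01. The precision is limited by the number of arrays, and the files carry no background or saturation value, so it cannot be told which of the dimmest and brightest probe sets still respond to RNA amount.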
